A study of Homo sapiens with 6 samples.

Results

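The cytosolic translation initiation and elongation factors, genes whose symbols start with EIF or EEF and a digit, were followed in C666-1 cells deprived of serine and glycine. C666-1 is a nasopharyngeal carcinoma line that carries Epstein-Barr virus. The set left out the EIF2AK kinases, EIF2S1, EIF2A, the EIF4EBP genes, EEF1E1 and the EEF1AKMT genes, and held 55 of the 16407 genes in the table. The deprived group was 3 libraries of cells kept for 24 h in medium without serine and glycine. The complete medium group was 3 libraries of cells kept for 24 h in the same minimal essential medium with 0.4 mM serine and 0.4 mM glycine. Both media lacked other non-essential amino acids and held 4.5 g/L glucose and 10% dialyzed serum. All cells were of this 1 line. Separate cultures are not stated for the 3 libraries of a medium, so p-values measure only their spread, which may be technical.

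Initiation begins when eIF2, loaded with GTP and the initiator tRNA, joins the small ribosomal subunit with eIF1, eIF1A, eIF5 and the large eIF3 complex. The eIF4 proteins bind the cap of the mRNA and unwind it, the loaded subunit scans to the start codon, and eIF5B brings in the large subunit. eIF2B then reloads eIF2 with GTP, and the eEF1 and eEF2 proteins carry elongation. When amino acids are short, phosphorylated eIF2 blocks eIF2B and low mTORC1 activity lets the 4E-BP proteins hold eIF4E. Both controls act on the proteins, which RNA counts do not show.

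The libraries held 16676318 to 17030355 estimated counts without serine and glycine and 16612196 to 16902750 in complete medium. Of the epithelial markers, KRT8 and KRT18 were at 507 to 1239.7 TPM (transcripts scaled by gene length and depth to a fixed total), while KRT5 and CDH1 were at or near 0 (highest 0.23 and 0.21 TPM). KRT19 was at 77.9 to 85.4 TPM without serine and glycine and 108.6 to 114.9 TPM in complete medium, and EPCAM and TP63 had at least 10.0 and 1.95 TPM. Of 5 markers of other cell types in the table, PTPRC and PECAM1 reached at most 0.05 and 0.58 TPM. The others were CD68, at 47.7 to 56.9 TPM without serine and glycine and 68.0 to 77.9 TPM in complete medium, and COL1A1 and COL3A1, at 3.26 to 14.1 TPM over both media. Their part in the results was not tested. The libraries numbered 1 stood apart within both media, with a chi-square per gene of 16.9 and 19.1 against the other deprived libraries, which differed from each other by 2.73. In complete medium these values were 13.5 and 9.01, against 4.09. Across media, deprived library 1 was at 10.45 from complete medium library 1, closer than to either other deprived library. It was at 33.9 and 26.3 from complete medium libraries 2 and 3. Deviations of same-numbered libraries from their group means correlated at 0.326, 0.141 and 0.190 for numbers 1, 2 and 3. Library 2 without serine and glycine correlated with library 3 of complete medium at 0.163, so pairing was clearest for number 1. A second edgeR fit took the library number as a block. Its adjusted p is given as the blocked adjusted p where it changes a call.

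Of the 55 factors, 53 were tested, and EIF5AL1 and EIF1AY did not pass the filter on low counts. A factor was called at an adjusted p under 0.05 (edgeR, quasi-likelihood, Benjamini-Hochberg over all tested genes). By that rule 2 of the 53 were higher without serine and glycine, where the background over all tested genes was 2.73%, and 4 were lower, where it was 4.22%. The 6 called factors were EIF2S2 and EIF3A, which rose, and EIF4A1, EIF6, EIF2B3 and EIF3C, which fell. They made up 11.3% of the tested factors, against 6.95% of all 12548 tested genes. The other 47 factors were not called. Fewer cells of a type and less RNA per cell cannot be told apart in such bulk samples.

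Changes were small. The log2 changes, given throughout as deprived over complete medium, ran from -0.64 for EIF2B3 to 0.36 for EIF3CL, with a median of -0.05 against 0.00 (-0.0007) for all tested genes. A negative log2 change was found for 36 of the 53 factors (67.9%, against 50.2% of all tested genes). On log2(TPM + 1) the number with a negative change was 31, and by library totals 32. The median of all tested genes was itself higher there, at 0.042 and 0.025, against -0.021 and -0.026 for the factors. The median absolute log2 change of the factors was 0.12, against 0.14 for all tested genes. The CPM of the deprived libraries all lay above those of complete medium for 8 factors and all below for 14, where the background was 16.1% and 16.4% of tested genes. Together these were 22 factors (41.5%), against 32.6% of all tested genes. An unadjusted p under 0.05 was reached by 21 factors (39.6%), against 27.3%.

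**Figure D1:**
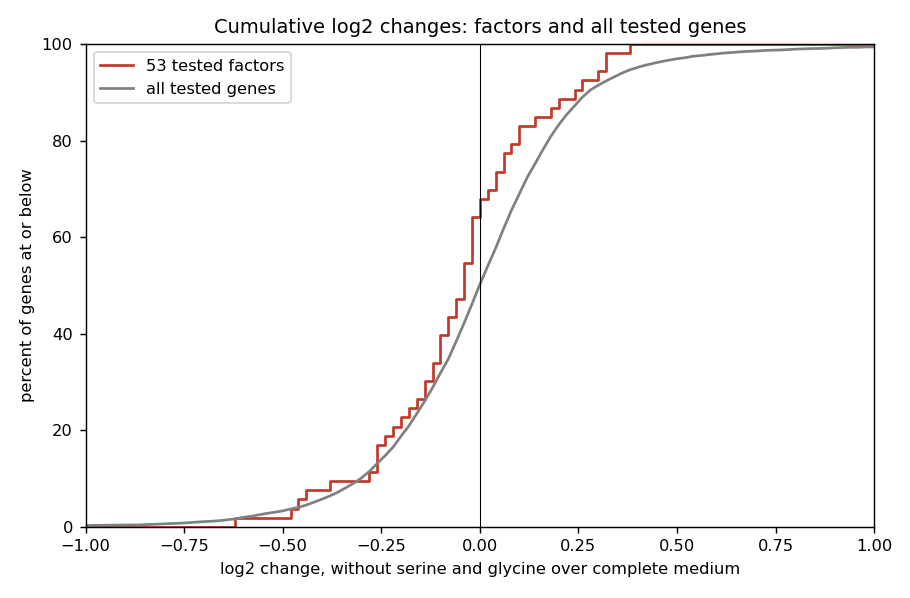
Cumulative share of genes (y axis, percent) at or below each log2 change (x axis, without serine and glycine over complete medium), for the 53 tested factors (red) and the 12548 tested genes (grey). The red line lies above the grey one around 0, where 67.9% of the factors and 50.2% of all genes had a negative change.

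With the replicate number as a block, 6 factors were higher and 12 lower, where 11.1% and 13.2% of all tested genes were called. That fit added EIF1B, EIF3G, EIF4B and EIF4G3 to the higher factors and EIF3K, EIF3I, EIF4G2, EIF4E, EIF5A, EEF1B2, EEF1A2 and EEF2KMT to the lower ones. In the fit without the block, 0 factors and 0 genes in all were called by edgeR after leaving out library 2 or 3 of the deprived medium, or library 2 or 3 of complete medium. In these 4 fits 19, 18, 14 and 16 factors had an unadjusted p under 0.05, not all of them the same as in the main fit. These were 35.8, 34, 26.4 and 30.2% of the 53 factors, against 22.5, 20.7, 17.1 and 19.7% of all genes tested. The 6 called factors kept their sign in each of these fits. Their media did not overlap in CPM, so leaving out a library could hardly have turned a sign.

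The upstream sequences of 3 of the 4 factors called lower are shown because they can be read beside the changes given below. That of EIF4B, which was not called, was added. Each is the 250 bases before an annotated start in RefSeq on GRCh38.p14, read on the gene's own strand. They are chr1:44986596-44986845 (minus strand) for EIF2B3, chr17:7572575-7572824 (plus) for EIF4A1, chr20:35284773-35285022 (minus) for EIF6 and chr12:53006206-53006455 (plus) for EIF4B. Capitals mark matches on either strand to the E-box CACGTG, which MYC and related proteins bind, or to the ETS motif CCGGAAG. EIF3C, also called lower, held neither motif in its upstream sequence, which is not shown.
EIF2B3: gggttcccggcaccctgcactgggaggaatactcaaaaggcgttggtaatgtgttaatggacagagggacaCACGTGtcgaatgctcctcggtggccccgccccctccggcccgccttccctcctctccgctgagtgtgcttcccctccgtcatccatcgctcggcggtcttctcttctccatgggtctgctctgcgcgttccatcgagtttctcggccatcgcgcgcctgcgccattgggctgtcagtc
EIF4A1: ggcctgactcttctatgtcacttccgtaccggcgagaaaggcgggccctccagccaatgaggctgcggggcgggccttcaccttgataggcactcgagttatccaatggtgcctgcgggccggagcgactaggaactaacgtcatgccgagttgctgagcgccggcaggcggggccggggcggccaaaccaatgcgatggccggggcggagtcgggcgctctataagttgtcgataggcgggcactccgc
EIF6: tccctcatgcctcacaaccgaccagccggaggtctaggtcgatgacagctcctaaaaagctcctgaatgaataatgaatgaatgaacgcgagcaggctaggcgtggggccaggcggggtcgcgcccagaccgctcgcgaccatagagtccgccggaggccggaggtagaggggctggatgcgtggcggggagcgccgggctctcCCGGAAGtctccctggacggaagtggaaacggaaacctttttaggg
EIF4B: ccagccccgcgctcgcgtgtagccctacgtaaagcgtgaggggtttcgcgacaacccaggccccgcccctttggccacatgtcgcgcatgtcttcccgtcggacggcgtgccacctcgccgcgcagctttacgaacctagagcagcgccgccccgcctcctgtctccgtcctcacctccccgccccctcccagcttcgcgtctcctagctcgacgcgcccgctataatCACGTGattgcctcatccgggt

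The RefSeq table held 62 promoters for 45 of the 55 factors. The E-box was present in 11 of the 62 (17.7%), against 8.36% of the promoters of tested genes and 6.34% of all promoters. In EIF2B3 it began 179 bases before the start, and in EIF4B 22 bases before it. The 11 factors with an E-box had log2 changes of both signs, 5 positive and 6 negative, between -0.64 (EIF2B3) and 0.29 (EIF4B). The ETS motif was in 17.7% of the factors' promoters and 14.0% of those of tested genes, and in this EIF6 promoter it began 46 bases before the start. Both shares count promoter entries, and among the factors overlapping entries of EIF6 and of EIF2S3B hold the same match. TGATGNAA, the composite element bound by ATF4, was found in 1 factor promoter (1.61%, against 1.70% for tested genes), that of EIF4E3. The motifs did not overlap each other in the promoters shown, and a match is a run of letters, not a bound site.

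The genes grouped here as start codon scanning factors were not called. EIF1, which guards start codon choice, was the most abundant of them at 922 ± 63.6 TPM without serine and glycine and 861 ± 35.4 TPM in complete medium (SD, n = 3 each), a log2 change of 0.05 (adjusted p = 0.782, SE 0.090). Its close paralog EIF1B had 60.9, 61.6 and 62.7 CPM (counts scaled to a fixed library total with TMM factors) in the deprived libraries, against 55.2, 52.2 and 49.8 CPM in complete medium. All deprived values of EIF1B lay above all values of complete medium, with a log2 change of 0.24 (adjusted p = 0.0554, blocked adjusted p = 0.0198, SE 0.066). EIF1B made up 15.8 ± 1.35% of the summed TPM of the pair in deprived cells and 14.0 ± 1.24% in complete medium, and these shares overlapped. EIF1AX, EIF5 and EIF1AD had log2 changes of -0.11, -0.08 and 0.09.

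The eIF2 ternary complex showed a rise of its beta subunit. EIF2S2, which encodes eIF2 beta (NCBI Gene 8894, chromosome 20, 34088309 to 34112243 on GRCh38), had 442, 386 and 408 CPM in the libraries without serine and glycine, against 334, 339 and 328 CPM in complete medium. The 2 ranges did not overlap, and the 3 libraries of complete medium lay close together. The means were 412 ± 28.2 and 334 ± 5.51 CPM (SD, n = 3 each), a log2 change of 0.31 (adjusted p = 0.0320, SE 0.068), or 23.6% more. EIF2S3, which encodes the GTP-binding gamma subunit, had 816 ± 22.7 CPM in deprived cells and 866 ± 31.9 CPM in complete medium, a log2 change of -0.09 (adjusted p = 0.437).

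The TPM ratio of EIF2S2 to EIF2S3, a pair set side by side after their values were seen, was 0.829, 0.759 and 0.779 in deprived cells and 0.646, 0.592 and 0.602 in complete medium. Every deprived library had the higher ratio. EIF2D, which delivers tRNA to the small subunit without GTP, had a log2 change of -0.05. EIF2S3B, a near copy of EIF2S3, had 1.72 and 1.65 TPM in the 2 media, and reads shared with EIF2S3 make its value uncertain.

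In eIF2B, the exchange factor that reloads eIF2, the gamma subunit alone was called. EIF2B3 (NCBI Gene 8891, chromosome 1, 44850522 to 44986595) had 25.1, 22.2 and 19.1 CPM without serine and glycine, against 28.5, 42.7 and 32.2 CPM in complete medium. The media did not overlap, but the gap between the highest deprived library and the lowest of complete medium, both numbered 1, was small beside the spread in complete medium. The means were 22.1 ± 3.02 and 34.5 ± 7.33 CPM (SD, n = 3 each), a log2 change of -0.64 (adjusted p = 0.0421, SE 0.154), or 35.8% less. The log2 changes of EIF2B1, EIF2B4, EIF2B2 and EIF2B5, which encode the alpha, delta, beta and epsilon subunits, were -0.13, -0.06, -0.02 and -0.02, with adjusted p between 0.256 and 0.902.

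EIF2B2 was the steadiest of these, at 47.0 CPM in each deprived library and 47.8, 47.4 and 47.8 CPM in complete medium. The TPM of EIF2B3 divided by the mean TPM of the other 4 subunits, a ratio chosen after the values were seen, was 0.777, 0.665 and 0.565 in deprived cells and 0.857, 1.24 and 0.958 in complete medium. By level, EIF2B4 led the subunits at 57.6 ± 5.48 TPM in deprived cells and 57.5 ± 1.39 TPM in complete medium. EIF2B5 and EIF2B4 did not differ beyond their spread, and EIF2B2 was the lowest at 23.0 ± 0.762 and 22.5 ± 0.723 TPM in the deprived and complete media.

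eIF3, the scaffold that holds the small subunit and the mRNA, had 1 subunit that rose and 1 that fell among its 14 listed genes. EIF3A, its largest subunit (NCBI Gene 8661, chromosome 10, 119033670 to 119080817), had 868, 731 and 774 CPM without serine and glycine and 669, 624 and 613 CPM in complete medium. Every deprived library was above every library of complete medium, with means of 791 ± 69.6 and 635 ± 29.6 CPM (SD, n = 3 each) and a log2 change of 0.32 (adjusted p = 0.0444, SE 0.080), or 24.5% more. NANOS1 overlaps the end of EIF3A and SNORA19 lies within it. EIF3C, which contacts eIF1 and eIF5 (NCBI Gene 8663, chromosome 16, 28688558 to 28735730), had 278, 238 and 213 CPM in deprived cells and 316, 394 and 303 CPM in complete medium.

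The media did not overlap for EIF3C, and its means of 243 ± 32.9 CPM in deprived cells and 338 ± 49.1 CPM in complete medium gave a log2 change of -0.48 (adjusted p = 0.0466, SE 0.120), or 28.1% less. EIF3CL is a near-identical copy on the same chromosome, so estimated counts of the pair are uncertain. EIF3CL took 0.869, 1.41 and 2.25% of the pair's summed TPM in deprived cells and 1.25, 0.314 and 1.07% in complete medium. Its own log2 change was 0.36 with an SE of 0.380 (adjusted p = 0.573). The ratio of EIF3A to EIF3C in TPM, chosen after the values were seen, was 1.29, 1.28 and 1.51 in deprived cells and 0.880, 0.656 and 0.840 in complete medium.

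The remaining eIF3 genes were not called. EIF3K, EIF3I and EIF3D lay lower in every deprived library than in any library of complete medium. EIF3K, a small peripheral subunit, had a log2 change of -0.27 (adjusted p = 0.0990, blocked adjusted p = 0.0157). EIF3I, which sits with EIF3B and EIF3G at the mRNA entry channel, had one of -0.25 (adjusted p = 0.0583, blocked adjusted p = 0.00609). EIF3D, which can bind the cap of some mRNAs, had one of -0.14 (adjusted p = 0.162). EIF3G, an RNA-binding subunit, had 74.6, 67.4 and 75.1 CPM in deprived cells and 63.9, 56.6 and 61.8 CPM in complete medium. That gave EIF3G a log2 change of 0.25 (adjusted p = 0.0629, blocked adjusted p = 0.00940, SE 0.073), with no overlap between the media. The most abundant subunit per length was EIF3E, at 382 ± 4.86 TPM in deprived cells and 377 ± 30.7 TPM in complete medium (log2 change -0.04, adjusted p = 0.789). The subunits EIF3B, EIF3L, EIF3M, EIF3J, EIF3H and EIF3F had log2 changes between -0.16 and 0.03.

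**Figure D2:**
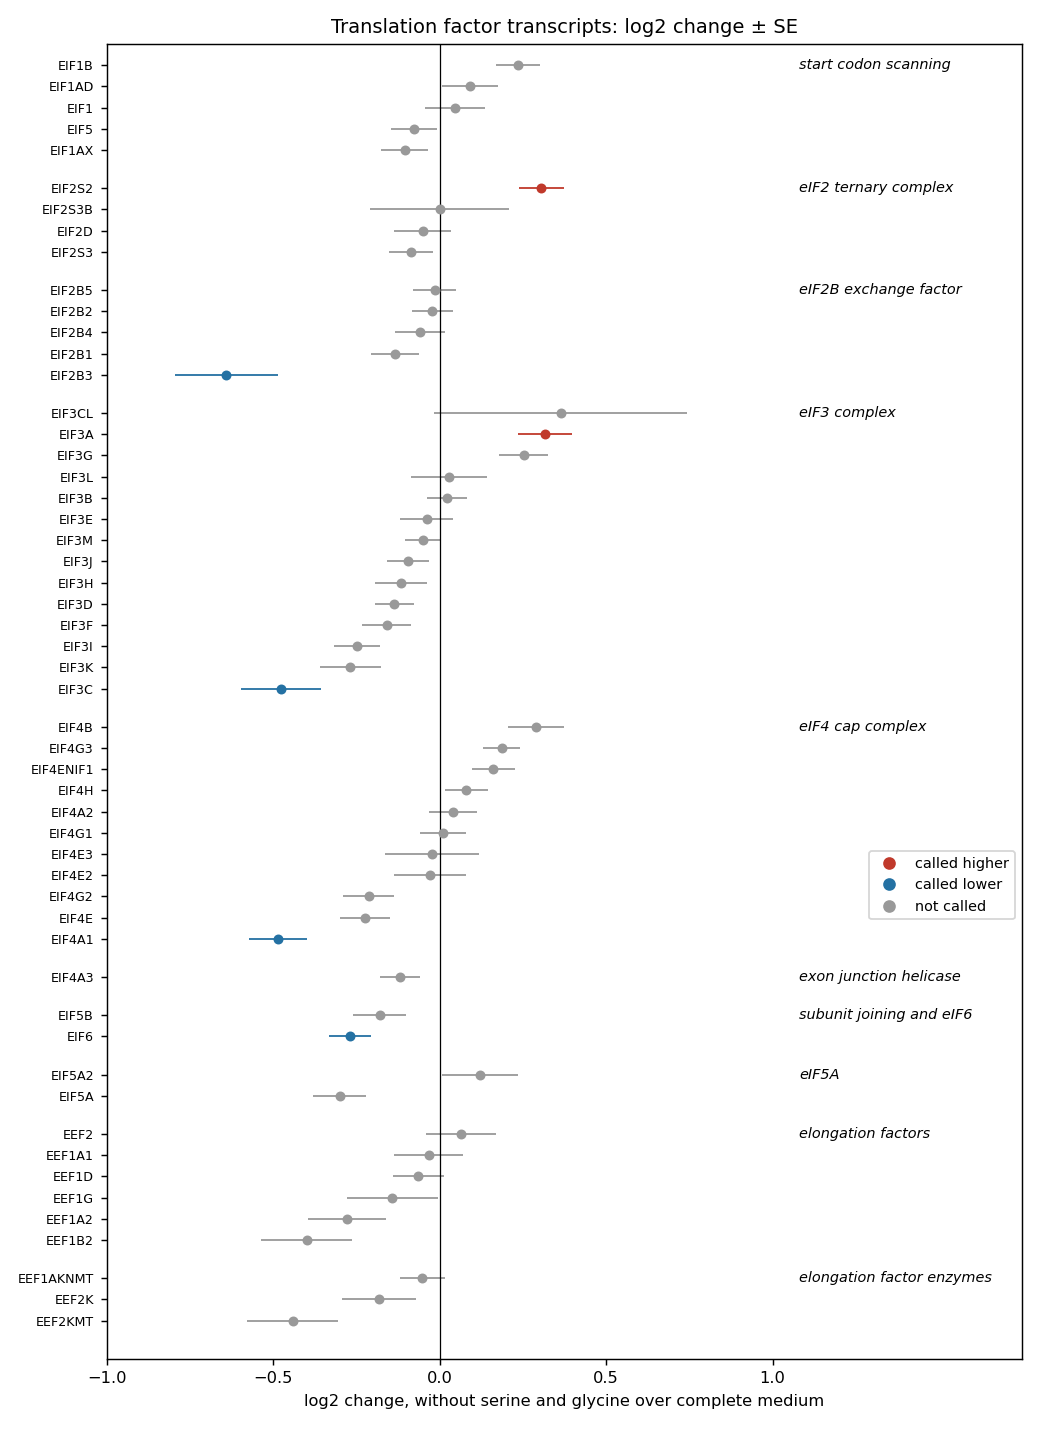
Log2 change of each of the 53 tested factors (x axis, without serine and glycine over complete medium) with its SE, grouped by role from the top. EIF2S2 and EIF3A (red) were called higher, EIF2B3, EIF3C, EIF4A1 and EIF6 (blue) were called lower, and the 47 grey factors were not called.

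The eIF4 cap complex held the factor with the smallest p-value. EIF4A1, the helicase that unwinds the leader of the mRNA (NCBI Gene 1973, chromosome 17, 7572825 to 7579006), had 707, 777 and 747 CPM without serine and glycine, against 934, 1155 and 1033 CPM in complete medium. The highest deprived library stood well below the lowest of complete medium. The means were 744 ± 35.3 and 1041 ± 111 CPM (SD, n = 3 each), a log2 change of -0.48 (adjusted p = 0.0227, SE 0.088), or 28.5% less. In the annotation the readthrough gene SENP3-EIF4A1 covers all of EIF4A1, and the small nucleolar RNA genes SNORA48, SNORD10 and SNORA67 lie within it. The annotation release used with RSEM is not given, and the expected counts of EIF4A1 were whole numbers in every library. The part of overlapping reads was not tested. EIF4A2, its paralog, had 211 ± 5.13 CPM in deprived cells and 205 ± 18.2 CPM in complete medium, a log2 change of 0.04 (adjusted p = 0.747).

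EIF4A1 made up 78.5, 79.7 and 79.8% of the pair's summed TPM in deprived cells and 84.6, 85.1 and 84.3% in complete medium, so the shares did not overlap. The eIF4G scaffold genes had log2 changes of both signs. EIF4G1, the main scaffold, had a log2 change of 0.01 (adjusted p = 0.941, SE 0.069). EIF4G2, which lacks the eIF4E-binding site and serves cap-independent initiation, had one of -0.21 (adjusted p = 0.109, blocked adjusted p = 0.0134, SE 0.076). EIF4G3, another scaffold, had 271, 267 and 271 CPM in deprived cells and 239.6, 235 and 237 CPM in complete medium. With so little spread, its log2 change of 0.19 (SE 0.055) came with an adjusted p of 0.0647 and a blocked adjusted p of 0.0146. EIF4G3 was 10.1 ± 0.0731% of the family's summed TPM in deprived cells and 8.35 ± 0.342% in complete medium, again with no overlap.

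EIF4B, which stimulates the eIF4A helicase, had 1015, 1105 and 1205 CPM without serine and glycine and 849.6, 919.8 and 953 CPM in complete medium. Its deprived values were all higher, with a log2 change of 0.29 (adjusted p = 0.0629, blocked adjusted p = 0.00361, SE 0.084). The TPM ratio of EIF4B to EIF4A1, chosen after the values were seen, was 0.616 ± 0.0436 in deprived cells and 0.363 ± 0.0289 in complete medium (SD, n = 3 each). EIF4H, a cofactor of the same helicase, had a log2 change of 0.08 (adjusted p = 0.449).

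The cap-binding protein EIF4E had 67.2, 67.7 and 67.2 CPM in deprived cells, against 71.1, 85.5 and 79.5 CPM in complete medium. The deprived libraries were nearly equal and lay below the others, with a log2 change of -0.22 (adjusted p = 0.0915, blocked adjusted p = 0.0283, SE 0.075). EIF4E2, a cap-binding paralog linked to repression, and EIF4E3 had log2 changes of -0.03 and -0.02. EIF4E made up 47.3 ± 2.09% of the summed TPM of the 3 genes in deprived cells and 48.1 ± 1.93% in complete medium. EIF4E3 was low, at 2.31 and 2.35 TPM in the deprived and complete media. EIF4ENIF1, the transporter that takes eIF4E into the nucleus, had a log2 change of 0.16 (adjusted p = 0.143, SE 0.065). EIF4A3, a helicase of the exon junction complex rather than of initiation, was at 105 ± 3.18 and 108 ± 2.15 TPM in the deprived and complete media, with a log2 change of -0.12 (adjusted p = 0.223).

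**Figure D3:**
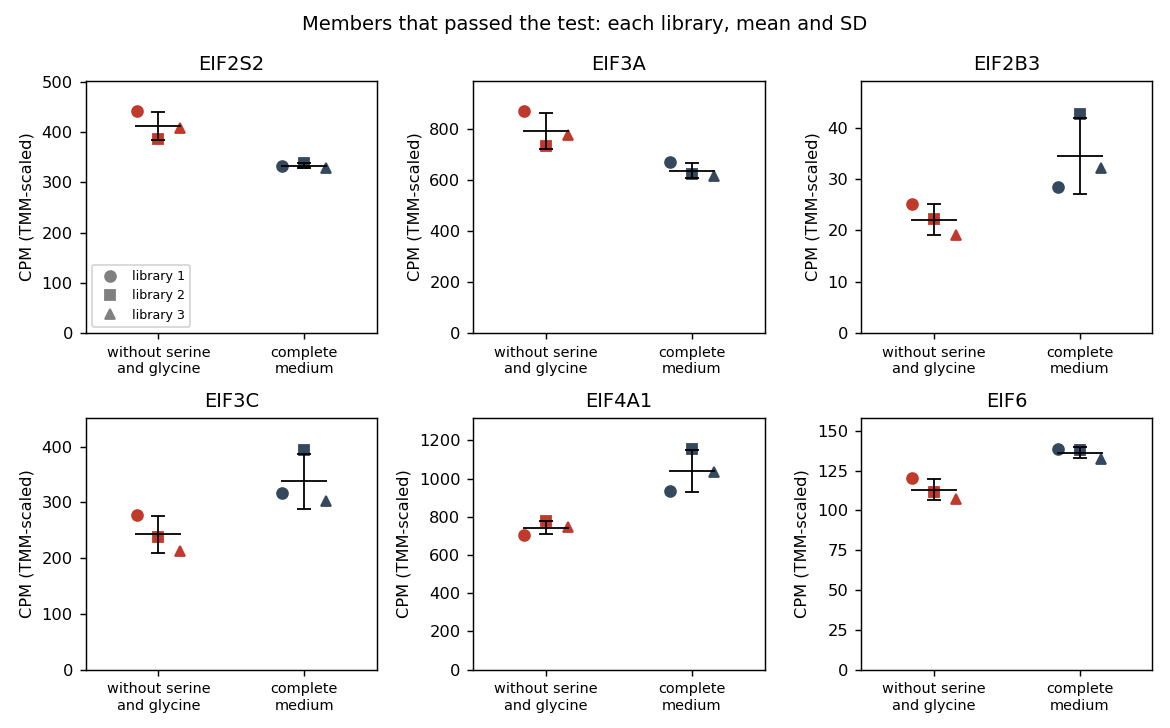
CPM (y axis, TMM-scaled, from 0) of the 6 called factors in each library without serine and glycine (red) and in complete medium (dark), with mean and SD of 3 libraries; marker shapes give the library number. In no panel do the media overlap, and for EIF2B3 the nearest libraries are those numbered 1, with 25.1 CPM in deprived library 1 and 28.5 CPM in complete medium library 1.

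EIF6, which keeps the large ribosomal subunit from joining too early and also serves its assembly, fell. It (NCBI Gene 3692, chromosome 20, 35278906 to 35284772) had 120.4, 112 and 107 CPM without serine and glycine, against 139, 138 and 133 CPM in complete medium. The means were 113 ± 6.63 and 136 ± 3.28 CPM (SD, n = 3 each), a log2 change of -0.27 (adjusted p = 0.0358, SE 0.062). All deprived libraries were below all libraries of complete medium. EIF5B, the GTPase of subunit joining, had a log2 change of -0.18 (adjusted p = 0.177, SE 0.079), and its media overlapped.

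EIF5A, a hypusine-bearing factor that helps ribosomes through difficult peptide bonds, was among the most abundant factors. It had 797, 849.6 and 821 CPM in deprived cells, against 940.2, 1113 and 983 CPM in complete medium. The media did not overlap, and the log2 change of -0.30 (SE 0.080) missed the threshold with an adjusted p of 0.0510 and had a blocked adjusted p of 0.00395. EIF5A2, a paralog often raised in tumours, had 28.7 ± 4.18 CPM in deprived cells and 26.4 ± 2.46 CPM in complete medium (log2 change 0.12, adjusted p = 0.528). It took 0.659 ± 0.112% of the pair's summed TPM in deprived cells and 0.495 ± 0.0506% in complete medium. EIF5AL1, a retrocopy of EIF5A, stayed under 1 CPM in every library.

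Elongation factors were the most abundant of the set and were not called. EEF1A1, which brings aminoacyl-tRNA to the ribosome, had 3924, 4407 and 4480.4 TPM without serine and glycine, against 3981, 4286 and 4370.2 TPM in complete medium. The media overlapped fully, with a log2 change of -0.03 (adjusted p = 0.872, SE 0.104) on counts. It made up 21.5% of the summed TPM of all factors. EEF1A2, a paralog normally confined to muscle and nerve and found in some tumours, had 269, 339 and 331 TPM in deprived cells, against 333, 377 and 389 TPM in complete medium.

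On TPM and on CPM the media overlapped for EEF1A2. Its log2 change was -0.28 (adjusted p = 0.162, blocked adjusted p = 0.00412, SE 0.117). As a share of the summed TPM of EEF1A1 and EEF1A2 it was 6.42, 7.15 and 6.89% in deprived cells and 7.72, 8.08 and 8.17% in complete medium, with no overlap. EEF1B2, a subunit of the exchange factor that reloads eEF1A, had 108, 148 and 147 CPM in deprived cells and 148, 196 and 186 CPM in complete medium. Its log2 change was -0.40 (adjusted p = 0.107, blocked adjusted p = 0.00104, SE 0.138). EEF1D and EEF1G, the other exchange factor subunits, had log2 changes of -0.06 and -0.14, and EEF2, the translocase, one of 0.06 (adjusted p = 0.732, SE 0.105).

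The libraries numbered 1 stood low for these genes. Library 1 was the lowest of its medium in deprived cells for all 6 elongation factors and in complete medium for 5 of the 6. It was the lowest in both media for 5 of them (83.3%), against 23.0% of all tested genes. Other groups shared this in part. It held for 3 of 4 eIF2 ternary complex genes, 2 of 5 scanning factors, 6 of 14 eIF3 and 4 of 11 eIF4 genes. In eIF2B it held for 1 of 5, and in subunit joining and eIF6 for 0 of 2. The summed TPM of the 6 elongation factors was 7651, 8995 and 9258 in deprived cells and 8282, 8974 and 9210.2 in complete medium, so library 1 was low in both. Beside the blocked adjusted p and the values without both libraries numbered 1, the part of the library number in these changes was not tested.

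Among enzymes that act on elongation factors, EEF2KMT, a methyltransferase of eEF2, had 34.1, 28.1 and 22.3 CPM without serine and glycine, against 40.7, 39.1 and 35.0 CPM in complete medium. The deprived values were all lower, with a log2 change of -0.44 (adjusted p = 0.0774, blocked adjusted p = 0.00463, SE 0.137). EEF2K, the kinase that halts eEF2, had 34.6 ± 2.05 CPM in deprived cells and 39.2 ± 6.10 CPM in complete medium (log2 change -0.18, adjusted p = 0.320). EEF1AKNMT, a methyltransferase of eEF1A listed in RefSeq as METTL13, had a log2 change of -0.05 (adjusted p = 0.650).

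Among the 54 factors other than EIF1AY, whose level is not reported here, means over the 6 libraries ran from 4241 TPM for EEF1A1 to 0.265 TPM for EIF5AL1. The 5 most abundant factors, EEF1A1, EEF1G, EIF5A, EEF2 and EIF4A1, held 51.6% of the summed TPM of the set. EEF1G and EIF5A, neighbours in that order, did not differ beyond their spread, at 1754 ± 269 and 1625 ± 29.5 TPM in deprived cells and 1865 ± 165 and 1920.5 ± 122 TPM in complete medium. EEF1D, EEF1B2, EIF4H and EIF4B followed EIF1 at mean levels of 574, 561, 561 and 545 TPM over the 6 libraries, close enough that their order turned with the medium. All factors together summed to 18646, 19717 and 19915 TPM in deprived cells and 19238, 20599 and 20266 TPM in complete medium, and these sums overlapped.

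**Figure D4:**
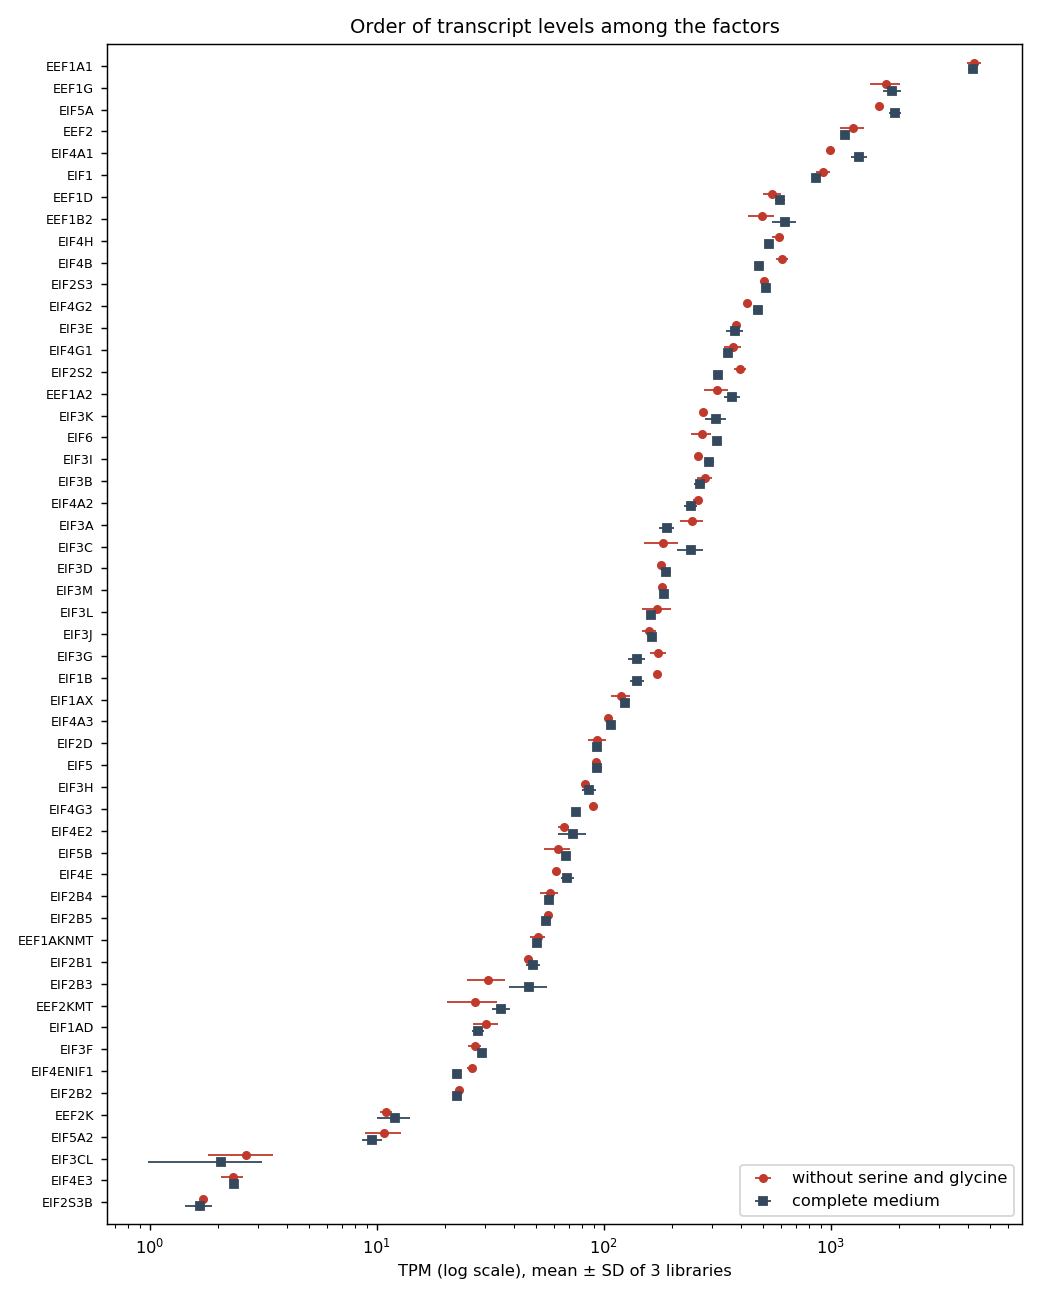
Level of each factor above 1 TPM (x axis, TPM on a log scale, mean ± SD of 3 libraries) without serine and glycine (red circles) and in complete medium (dark squares), ordered by the mean over both. EEF1A1 leads at 4270.3 TPM in deprived cells and 4212 TPM in complete medium, and EIF3CL, EIF4E3 and EIF2S3B close the order under 3 TPM.

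**Figure D5:**
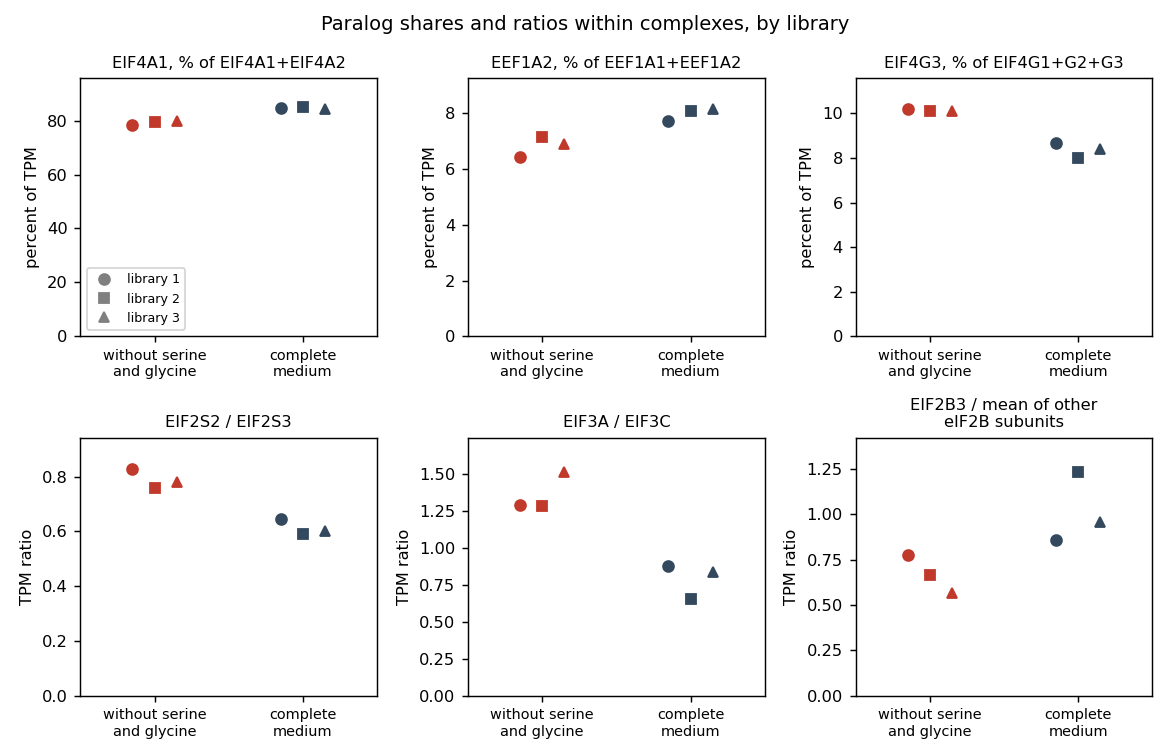
Paralog shares (top row, percent of summed TPM) and ratios within complexes (bottom row, TPM ratio) in each library without serine and glycine (red) and in complete medium (dark); marker shapes give the library number, and axes start at 0. The media do not overlap in any panel drawn. The ratios were chosen after the values were seen, and shares that overlapped, such as those of EIF1B and EIF4E, are not drawn. EIF4A1 is 78.5 to 79.8% of its pair in deprived cells and 84.3 to 85.1% in complete medium.

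Shorter transcripts among the factors tended to have lower log2 changes. Relative transcript length, computed from the ratio of counts to FPKM, correlated with the log2 change across the 53 factors at a Spearman rho of 0.28, and across 11501 tested genes at 0.22. Of the 27 factors up to the median length of 2199 bases, 21 had a negative change, with a median of -0.12. Of the 26 longer ones 15 did, with a median of -0.02. All tested genes split at the same length had medians of -0.06 and 0.02, so both sets had the lower median among shorter transcripts. The points share libraries and depth, genes are not independent replicates, and the part of length in these changes was not tested.

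Other genes of the pathway were counted from 6 lists, 59 genes tested in all, of which 1 was higher and 2 were lower. These 3 were 5.08% of the tested genes of the lists, against 6.95% of all tested genes, and 18 (30.5%) had an unadjusted p under 0.05, against 27.3%. The gene that rose was EIF4EBP2, a repressor that holds eIF4E, with 124, 131 and 138 CPM without serine and glycine and 108, 98.9 and 105 CPM in complete medium (log2 change 0.33, adjusted p = 0.0246, SE 0.064). It was the 1 call among 16 regulators of the cap and the poly(A) tail. Its paralog EIF4EBP1, named after its values were seen, was the more abundant at 341 ± 21.4 TPM in deprived cells and 378 ± 5.94 TPM in complete medium, against 35.8 ± 0.928 and 27.4 ± 1.95 TPM for EIF4EBP2. EIF4EBP1 had lower CPM in every deprived library than in any library of complete medium, at a log2 change of -0.21 (adjusted p = 0.0609, blocked adjusted p = 0.0180). DHX9, a helicase that aids translation of structured mRNAs and the 1 call among 8 reinitiation and helicase genes, fell to 262 ± 5.08 CPM in deprived cells, against 345 ± 41.4 CPM in complete medium (log2 change -0.40, adjusted p = 0.0292, SE 0.085). MRRF, the mitochondrial ribosome recycling factor and the 1 call among 11 mitochondrial factors, fell to 46.9 ± 2.06 CPM, against 58.5 ± 4.93 CPM in complete medium (log2 change -0.32, adjusted p = 0.0426, SE 0.079).

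Of 5 tested termination and recycling factors, 0 were called by edgeR and 1 had an unadjusted p under 0.05, with HBS1L, a ribosome rescue factor, at a log2 change of -0.21 (adjusted p = 0.125) and its partner PELO at 0.10 (adjusted p = 0.355). Of 13 enzymes that modify translation factors, 0 were called by edgeR, 4 had an unadjusted p under 0.05, and the median log2 change was 0.07. EEF1AKMT1 had a log2 change of -0.57 at 3.48 and 5.17 CPM in the deprived and complete media (adjusted p = 0.0629, blocked adjusted p = 0.0229), and DHPS, the first enzyme of hypusine synthesis on eIF5A, one of -0.27 (adjusted p = 0.0808, blocked adjusted p = 0.0147). The other 2 of the 4 had positive log2 changes, 0.36 for EEF1AKMT3 (adjusted p = 0.170) and 0.19 for DPH3 (adjusted p = 0.1501), and neither overlapped between the media. Of 6 selenocysteine genes, 0 were called by edgeR and 3 had an unadjusted p under 0.05, and their median log2 change was -0.29. The selenocysteine elongation factor EEFSEC had one of -0.30 (adjusted p = 0.0615, blocked adjusted p = 0.0116) and SEPHS2, which makes the selenium donor, one of -0.31 (adjusted p = 0.0665, blocked adjusted p = 0.00888). With the block 3 genes of the 6 lists were higher and 12 lower, together 25.4% of those tested, against 24.3% of all tested genes.

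The 6 calls differed in how far they depended on the processing. EIF4A1 was called in every alternative fit except the 4 that left out library 2 or 3 of a medium, where its adjusted p ran from 0.0653 to 0.113. EIF2S2 was also lost on log2 TPM (adjusted p = 0.0526). EIF3A and EIF2B3 were lost on log2(FPKM + 1) (adjusted p = 0.0603 and 0.0687) and on TPM. EIF6 and EIF3C were lost on FPKM and TPM, by library totals (adjusted p = 0.0569 and 0.0583) and without library 1 of complete medium (0.0512 and 0.0524). EIF3C was further lost without both libraries numbered 1 (adjusted p = 0.0844).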

How the data were processed

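RNA was measured in 3 libraries without serine and glycine and 3 in complete medium, each after 24 h, grouped by title. The submitters' processing notes name RSEM 1.3.1, GRCh38 and Bowtie2 2.3.4.3. Annotation release and strand setting are not given in the sources used here. Deposited values are expected counts (15.2 to 16.0% not whole), FPKM and TPM, per the file headers. Estimated counts of near-identical genes are uncertain.

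Rounded counts went into edgeR 4.0.16 under R 4.3.3 (TMM, filterByExpr with a minimum count of 10 and total of 15, robust quasi-likelihood fit, medium as the one term, two-sided, Benjamini-Hochberg over 12548 genes, call under 0.05). The common biological coefficient of variation was 8.43%. The SE is the absolute log2 change divided by the square root of F. The procedure was tested on simulated data, which held no effect of library number. Its pass rule covered only changes larger than those of the called factors. Alternatives used DESeq2 1.42.0 and limma 3.58.1.

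Deviations of same-numbered libraries from their group means correlated across genes at 0.326, 0.141 and 0.190, each over the 0.1 taken as pairing, though library 2 without serine and glycine with library 3 of complete medium gave 0.163. Replicate pairs differed by a chi-square per gene of 2.73 to 19.1, so none was counted as a copy. Members, lists and tests were chosen with earlier results of these data known. Named in full are called factors, and by change those with an unadjusted p under 0.05 and the most abundant of each role. Of 16407 genes, 16352 were matched by Gene number to RefSeq on GRCh38.p14, the source of positions.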

Additional observations from a re-analysis of the deposited data

How the results depend on the processing

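The median log2 change of the factors moved by less than the spread between libraries and stayed negative in each alternative run, from -0.10 to -0.02. None of the 6 called factors changed sign, which was hardly possible, as their media did not overlap in CPM. With both libraries numbered 1 left out, 7 factors were higher and 15 lower, with 3643 of 12552 tested genes called in all and 23 on the pathway lists. With the replicate block these numbers were 6, 12, 3044 and 15. DESeq2 gave 4 higher, 8 lower, 1246 in all and 5 pathway genes. Library totals gave 5 higher, 3 lower and 883 in all, where the main fit had 2, 4 and 872. limma on log2(FPKM + 1) gave 1 higher, 1 lower, 340 in all and 1 pathway gene, log2(FPKM + 0.1) gave 1, 1, 356 and 1, and log2(TPM + 1) gave 0, 1, 117 and 0. A call at an adjusted p under 0.1 gave 6, 9, 2027 and 11. From the replicate block to here, each count in all is of 12548 tested genes. Leaving out 1 library left 12646 to 12674 genes tested. It gave 0 to 4 higher, 0 to 7 lower, 0 to 1737 in all and 0 to 7 pathway genes. Each count was 0 without library 2 or 3 of either medium. The cause of these differences was not tested.

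Followed under every alternative were 28 factors. Of these, 21 were chosen for an unadjusted p under 0.05 in the main edgeR fit. The others were the most abundant of their role. The 4 that turned sign at least once were uncalled, had log2 changes near 0 and were all among these others. Over all 53, the number with a negative change ran from 31 to 39. On log2(TPM + 1) EIF3E was at 0.0227 and EEF1A1 at 0.0183. Leaving out 1 library gave -0.114 to 0.0197 for EIF3E, -0.0930 to 0.0495 for EEF1A1, -0.0932 to 0.000401 for EEF1AKNMT and -0.000929 to 0.128 for EIF1. Depth limits EIF3CL, EIF2S3B and EIF4E3, which were under 6 CPM.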
